A study of Mus musculus with 7 samples.

Results

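The genes described here encode the proteins of the mitochondrial ribosome, taken as every gene of the deposited table whose symbol is Mrpl or Mrps followed by a number and at most 1 letter. The rule found 78 of the 57180 genes in the table, and all 78 passed the filter on low counts that left 15838 genes for testing. By what is known of the ribosome's structure, 51 encode proteins of the large subunit and 26 proteins of the small subunit. Mrps18a and Mrps30 carry a small subunit symbol but sit in the large subunit and are counted there. The last member, Mrps36, is now known as a component of the 2-oxoglutarate dehydrogenase complex and not of the ribosome.

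Mitochondria translate the few proteins of their own genome, all of them subunits of the respiratory chain or of ATP synthase, on a dedicated ribosome. Its rRNAs come from mitochondrial DNA, whereas every one of its proteins is made from a nuclear gene, translated in the cytosol and imported. T cells enlarge this machinery when they are activated and begin to divide, and lymphocytes that cannot translate in mitochondria lose respiratory capacity.

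Regulatory T cells (Treg cells, CD4 T cells that depend on the transcription factor FOXP3 and restrain immune responses) were taken from mice that carried tumours of B16-F0, a mouse melanoma line that can be transplanted, and sorted into a FOXP3-high population (3 libraries) and a FOXP3-low population (4 libraries). All mice were of the Foxp3-Cre-YFP strain, in which the Foxp3 gene drives YFP and Cre, and their genotype is otherwise labelled WT. Stranded mRNA libraries of the bulk populations gave whole-number counts for each gene. The sources used here give neither the age of the mice nor the gates of the sort, nor how many mice stand behind each group. The p-values therefore measure only how these libraries varied, and that variation may be technical.

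Libraries held 9048771 to 11202260 counts in FOXP3-high and 12177761 to 14546999 counts in FOXP3-low. Levels are given in CPM, that is, each library's counts brought to a common total after TMM scaling, and 1 CPM corresponds to between 8.98 and 14.3 counts depending on the library. Each fold change is the log2 level in FOXP3-high minus that in FOXP3-low and carries a standard error (SE), and a gene was called when its Benjamini-Hochberg adjusted p over all 15838 genes in edgeR's quasi-likelihood test was under 0.05. Foxp3, the check of the labels, averaged 698 ± 95.4 CPM in FOXP3-high and 357 ± 44.3 CPM in FOXP3-low (SD, n = 3 and 4). Of 17 T cell identity genes 15 were called higher in FOXP3-high and 1 lower. The summed level of the 17 was 5313 to 6038 CPM there, against 3942 to 4371 CPM in FOXP3-low. Markers of other cells were present too. The summed level of 17 macrophage and monocyte genes (16 called lower, 1 higher) was 737 to 766 CPM in FOXP3-high and 2456 to 3011 CPM in FOXP3-low. Ccr2, the 1 that was higher, had the most counts of the 17 in FOXP3-high (13934, against 11504 in FOXP3-low). The sum therefore understates the difference in most of the list, whose median log2 fold change was -3.95. The summed level of 10 melanoma genes (10 called higher) was 3410 to 4688 CPM in FOXP3-high and 1406 to 2516 CPM in FOXP3-low. That of 28 cell cycle genes (28 called lower) was 1697 to 1984 CPM in FOXP3-high and 7525 to 8092 CPM in FOXP3-low. Of 7 tested neutrophil genes 6 were lower, as were all 9 dendritic cell genes, 2 of 4 tested B and plasma cell genes and both CD8 T cell genes. None of 8 tested endothelial and fibroblast genes was called, and their summed level spanned 89.6 to 598 CPM in FOXP3-high and 141 to 699 CPM in FOXP3-low. Among these markers Ly6g, a neutrophil surface protein that did not pass the low-count filter, had no count in FOXP3-high and 20 in FOXP3-low. The 7 tested neutrophil genes were present in FOXP3-high, at a summed level of 103 to 235 CPM against 2638 to 3102 CPM in FOXP3-low.

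The transcripts of mitochondrial ribosome proteins were lower in FOXP3-high. Together they took 1570, 1503 and 1538 CPM in the 3 FOXP3-high libraries, against 1957, 1916, 1910 and 1984 CPM in the 4 FOXP3-low libraries. The highest FOXP3-high library thus lay below the lowest FOXP3-low library, and the group means of 1537 ± 33.5 and 1942 ± 35.2 CPM (SD, n = 3 and 4) differed by 20.8%. Of the 78 genes, 38 (48.7%) were called lower and 1 (1.28%) higher, where 24.6% of all genes tested were called lower and 21.8% higher. The median log2 fold change was -0.35, a reduction of 21.7%, beside a median of 0.01 over all genes tested. The middle 50% of members lay between -0.54 and -0.15, and a negative sign was seen in 72 of 78. In 42 members every FOXP3-high library lay below every FOXP3-low library, as in 26.8% of all genes tested, and in 2 members every FOXP3-high library lay above, as in 23.9%. Fewer cells with many of these transcripts and less of the transcripts per cell cannot be told apart in bulk libraries.

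**Figure D1:**
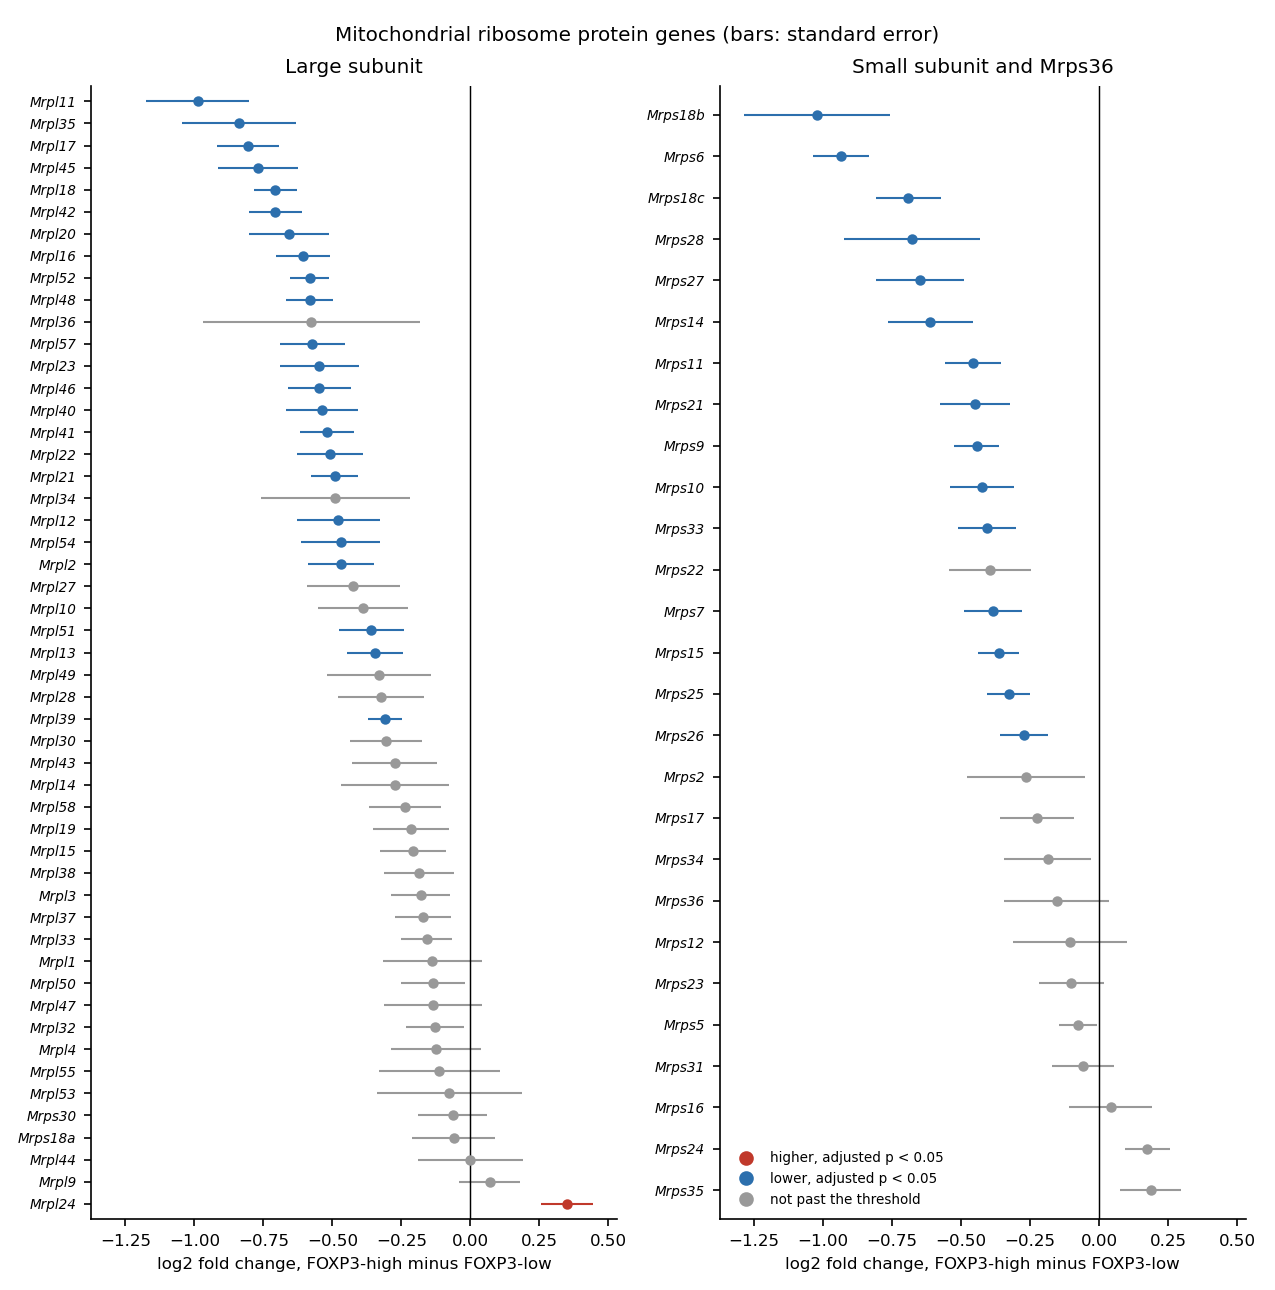
Log2 fold change (horizontal axis, FOXP3-high minus FOXP3-low) of each of the 78 genes with its standard error as a bar, in the large subunit (left) and in the small subunit with Mrps36 (right). Blue points are the 38 genes called lower, the red point is Mrpl24, the 1 called higher, and grey points did not pass an adjusted p of 0.05.

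The decrease was modest gene by gene and spread over both subunits. In the large subunit 23 of 51 genes were lower and 1 higher, with a median of -0.35, and in the small subunit 15 of 26 were lower and none higher, with a median of -0.37. Summed levels averaged 914 ± 12.6 CPM in FOXP3-high and 1176 ± 21.5 CPM in FOXP3-low for the large subunit, and 618 ± 25.6 and 760 ± 15.8 CPM for the small subunit (SD, n = 3 and 4). The ratio of large to small subunit transcripts was 1.42, 1.5 and 1.52 in FOXP3-high and 1.51, 1.55, 1.56 and 1.57 in FOXP3-low, so these ranges overlapped. Proteins with a bacterial counterpart (22 of 47 lower, 1 higher, median -0.38) and proteins that exist only in mitochondria (16 of 30 lower, median -0.33) gave similar counts. Calls were more frequent where counts were higher. In the third of members with the highest level (22 to 144 CPM) 19 of 26 were lower, and in the third with the lowest level (1.41 to 10.4 CPM) 8 of 26 were, although the medians of -0.42 and -0.30 differed less; the median SE was 0.0965 in the highest set and 0.184 in the lowest.

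Mrps18b, a small subunit protein, showed the largest decrease. It was at 3.44, 1.89 and 3.21 CPM in FOXP3-high, against 6.5, 4.15, 6.52 and 6.19 CPM in FOXP3-low (log2 fold change -1.02, SE 0.26, edgeR adjusted p = 0.0104). The groups did not overlap, and FOXP3-low replicate 2 stood apart from the other 3 libraries of its group. Mrps18b, Mrps18a and Mrps18c are 3 paralogs of bacterial S18, the only members told apart by a letter, of which Mrps18c holds the bacterial position and Mrps18a sits in the large subunit. In the grouping above, Mrps18b was counted with the proteins that exist only in mitochondria, although its paralogs were counted with those that have a bacterial counterpart. Mrps18c was also lower, at 15.6, 18.4 and 17.2 CPM in FOXP3-high and 32.7, 26.3, 27 and 24.2 CPM in FOXP3-low (log2 fold change -0.69, SE 0.12, edgeR adjusted p = 0.00101). Mrps18a was at 9.72, 8.57 and 7.74 CPM in FOXP3-high and 7.88, 9.11, 9.11 and 10.1 CPM in FOXP3-low, so the groups overlapped (log2 fold change -0.06, SE 0.15, edgeR adjusted p = 0.773). The difference among the 3 paralogs was not tested. Mrps18c is overlapped on its own strand by Gm43511, which held 98.1% as many counts and was lower (log2 fold change -0.43), and Mrps18b on the opposite strand by Gm16279, which held 84.3% as many and was lower (log2 fold change -0.84). Reads of these pairs may not have been kept apart.

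Other strong decreases were seen in genes of the large subunit. Whether decreases were more frequent in any part of that subunit was not tested. Mrpl11, at the stalk base where translation factors bind, was at 5.07, 4.34 and 5.47 CPM in FOXP3-high and 9.26, 11.8, 7.78 and 10.7 CPM in FOXP3-low (log2 fold change -0.99, SE 0.19, edgeR adjusted p = 0.00198). Its neighbours in the stalk, named after their values were seen, were Mrpl12 (log2 fold change -0.48, edgeR adjusted p = 0.0273) and Mrpl10 (-0.39, edgeR adjusted p = 0.0794), and in both genes every FOXP3-high library lay below every FOXP3-low library. For Mrpl12 the gap was narrow, from 28.3 CPM in the highest FOXP3-high library to 28.4 CPM in the lowest FOXP3-low library, and its call held in 10 of 18 alternative settings. It was lost without FOXP3-high replicate 2 or 3 and without FOXP3-low replicate 3 or 4 (edgeR adjusted p = 0.0986, 0.0843, 0.0508 and 0.0691). Mrpl45, which ties the ribosome to the inner membrane, was at 9.97, 13.9 and 12.1 CPM in FOXP3-high and 17.1, 20.7, 23.3 and 20.3 CPM in FOXP3-low (log2 fold change -0.77, SE 0.15, edgeR adjusted p = 0.0019). Mrpl17, which lies near the exit of the peptide tunnel, was at 15.1, 13.2 and 17.7 CPM in FOXP3-high against 29.7, 26.7, 25.6 and 25.7 CPM in FOXP3-low (log2 fold change -0.81, SE 0.11, edgeR adjusted p = 3.19e-04). In each of these genes the 2 groups were apart in all libraries. Mrpl35 (log2 fold change -0.84, edgeR adjusted p = 0.00807) and Mrpl42 (-0.71, edgeR adjusted p = 2.50e-04), a bacterial-type and a mitochondria-only protein, were lower as well.

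Mrps6, the small subunit partner of the S18 protein, was at 9.97, 10.9 and 11.6 CPM in FOXP3-high and 20.9, 20.7, 19.2 and 22.1 CPM in FOXP3-low. Its log2 fold change of -0.93 (SE 0.1, edgeR adjusted p = 6.02e-05) came with a narrow spread in both groups. Slc5a3, a myo-inositol transporter gene, lies inside Mrps6 on the same strand, held 253% as many counts and was itself lower (log2 fold change -0.23), so reads of the 2 genes were not separated with certainty. The same holds for Gm49711, on that strand too, with 36.4% as many counts as Mrps6 and a log2 fold change of -1.04. Mrps28 was at 2.58, 4.56 and 2.83 CPM in FOXP3-high and 4.71, 4.64, 6.17 and 5.6 CPM in FOXP3-low (log2 fold change -0.68, SE 0.25, edgeR adjusted p = 0.0465). It stayed past the threshold in 5 of 18 alternative settings, and among those that left out a single library only without FOXP3-high replicate 2. The lowest FOXP3-low value of Mrps28 was close to the highest FOXP3-high value.

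**Figure D2:**
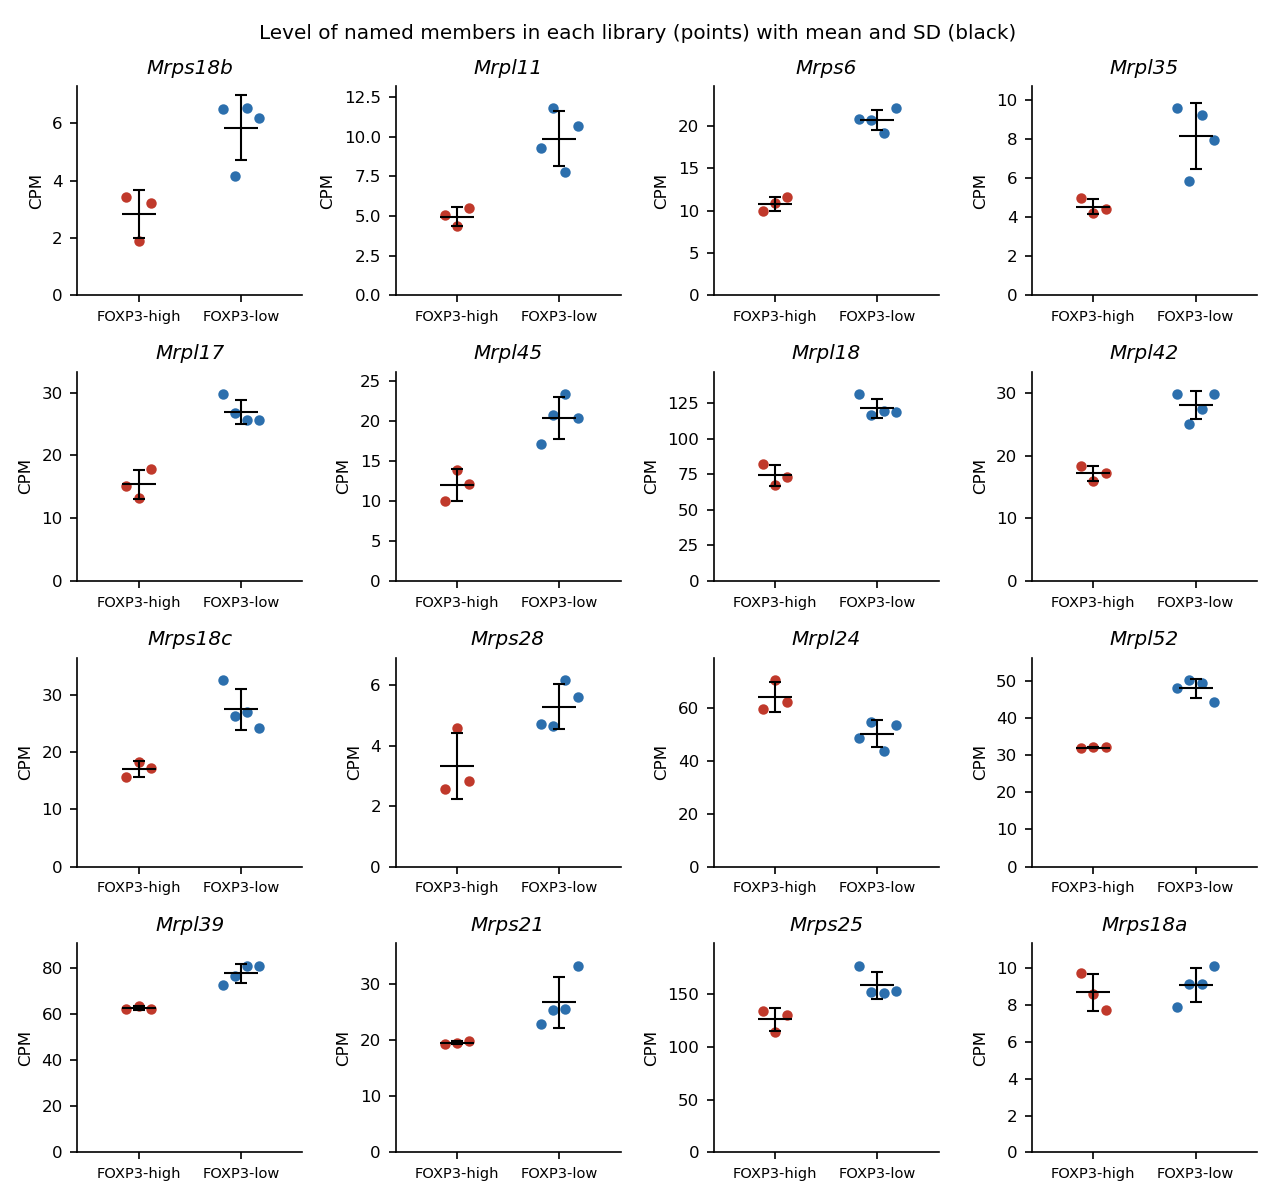
Level in CPM (vertical axis, from 0) of 16 named members in each of the 3 FOXP3-high (red, left) and 4 FOXP3-low libraries (blue, right), with mean and SD in black. Mrpl24 is higher in FOXP3-high, Mrps18a overlaps, and in the other 14 genes the groups do not overlap.

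The 3 members of each subunit with the highest level per length were lower too. Among all members, Mrpl18 was the highest at a mean of 72.5 CPM per kilobase of deposited gene length. It was at 82.4, 67.7 and 73.1 CPM in FOXP3-high and 131, 117, 119 and 119 CPM in FOXP3-low, a reduction of 38.7% (log2 fold change -0.71, SE 0.0775, edgeR adjusted p = 6.35e-05). Mrpl18 shares 502 bases with Tcp1, a chaperonin subunit on the opposite strand, which held 379% as many counts and was also lower (log2 fold change -0.84). Reads of this pair may not have been kept apart. Mrpl52 was at 31.9, 32.1 and 32.1 CPM in FOXP3-high and 47.9, 50.2, 49.3 and 44.3 CPM in FOXP3-low (log2 fold change -0.58, SE 0.0703, edgeR adjusted p = 1.17e-04). Mrpl39 averaged 62.9 ± 0.717 CPM in FOXP3-high and 77.9 ± 4.08 CPM in FOXP3-low (SD, n = 3 and 4; edgeR adjusted p = 0.00272).

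In the small subunit Mrps21, Mrps25 and Mrps18c were the highest per length, at 32, 22 and 21.4 CPM per kilobase. Mrps25 averaged 126 ± 10.5 CPM in FOXP3-high and 158 ± 12.5 CPM in FOXP3-low (SD, n = 3 and 4; log2 fold change -0.33, edgeR adjusted p = 0.00663), and it overlaps Nr2c2 on the opposite strand, which was higher in FOXP3-high. Mrps21 was at 19.3, 19.5 and 19.9 CPM in FOXP3-high and 22.8, 25.4, 25.5 and 33.3 CPM in FOXP3-low (log2 fold change -0.45, edgeR adjusted p = 0.0159). The other 24 genes called lower had log2 fold changes between -0.66 and -0.27 and adjusted p-values of at most 0.0315, and in all 24 the groups did not overlap.

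Mrpl24, a protein of the tunnel exit, was the member that rose. It was at 59.9, 70.8 and 62.3 CPM in FOXP3-high and 48.9, 55, 44 and 53.9 CPM in FOXP3-low, with every FOXP3-high library above every FOXP3-low library (log2 fold change 0.35, SE 0.0947, edgeR adjusted p = 0.013). Mettl25b shares 1062 bases with it on the opposite strand, held 47.2% as many counts and was higher by a similar 0.33. With libraries scaled to the T cell identity genes the sign of Mrpl24 turned (log2 fold change -0.13, edgeR adjusted p = 0.152). Of its neighbours around the tunnel exit, named after their values were seen, Mrpl22 and Mrpl23 were lower (log2 fold changes -0.51 and -0.55, edgeR adjusted p = 0.00619 and 0.0112), and Mrpl47 had a log2 fold change of -0.13 (edgeR adjusted p = 0.578). Mrpl23 has a processed copy, Mrpl23-ps1, at 2.24 ± 1.16 CPM in FOXP3-high and 4.35 ± 0.466 CPM in FOXP3-low (SD, n = 3 and 4), against 9.25 ± 1.45 and 13.5 ± 1.2 CPM of Mrpl23 itself, and reads shared by the pair may have been split.

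Of the 39 members that were not called, 34 had a log2 fold change below 0 and 5 above. Their values ran from -0.58 in Mrpl36, a transcript at 1.41 CPM on average, to 0.19 in Mrps35. Some were measured precisely. Mrps5, named after its values were seen, was at 127, 105 and 111 CPM in FOXP3-high and 119, 116, 124 and 123 CPM in FOXP3-low, with a log2 fold change of -0.08 and an SE of 0.0694 (edgeR adjusted p = 0.398). Mrps36, the member that is not a ribosome protein, averaged 5.73 ± 0.298 CPM in FOXP3-high and 6.37 ± 1.23 CPM in FOXP3-low (SD, n = 3 and 4; edgeR adjusted p = 0.549). In 30 of the 78 members another gene with at least 10% as many counts overlaps the annotated span, in 7 of them on the same strand, and 23 of the 48 members without such a partner were lower. Mrpl46 and Mrps11, a large and a small subunit gene, overlap each other by 413 bases on opposite strands, and both were lower (log2 fold changes -0.55 and -0.46).

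The members lie on 17 chromosomes, and their promoters carried more of some letters than other promoters. RefSeq promoter windows of GRCm38.p6, from 250 bases before to 50 bases after the start, were found for 69 members (75 windows); Mrpl4, Mrpl13, Mrpl15, Mrpl19, Mrpl38, Mrpl54, Mrps28, Mrps34 and Mrps35 had none. Both strands were searched for letters typical of factors that act on nuclear genes of mitochondria: CCGGAAG, the core bound by ETS factors such as GABP, AAGATGGCG, bound by YY1, and GCATGCGC, bound by NRF1. CCGGAAG was in 34.7% of the members' windows and in 17.1% of the 12737 windows of protein-coding genes tested. For AAGATGGCG the shares were 10.7% and 2.87%, and for GCATGCGC 10.7% and 4.99%. At least 1 of the 3 was in 36 of 75 windows (48%), against 23% of all. The YY1 variant AAATGGCG was in 1.33% of the members' windows and 1.35% of all. Shares of CCAAT (40% and 37.6%), the E-box CACGTG (9.33% and 9.7%) and TATAAA (6.67% and 7.58%) were nearer to those of other genes, and the GC box GGGCGG was in a smaller share of the members' windows (52% and 60.5%). Among members, 14 of 26 with CCGGAAG were lower and 21 of the 43 without it, and the median log2 fold changes were -0.41 with CCGGAAG and -0.33 without. The split ran the other way for CCAAT, where 12 of 27 with it were lower and 23 of 42 without (medians -0.27 and -0.44), and in the medians for GCATGCGC (-0.35 with it and -0.38 without). For GGGCGG, 20 of 34 with it were lower and 15 of 35 without (medians -0.39 and -0.33). For AAGATGGCG, 4 of 8 with it were lower and 31 of 61 without (medians -0.52 and -0.36). CACGTG and TATAAA were each in 5 members, of which 3 were lower. None of these splits was tested. A match of letters is no evidence of binding.

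**Figure D3:**
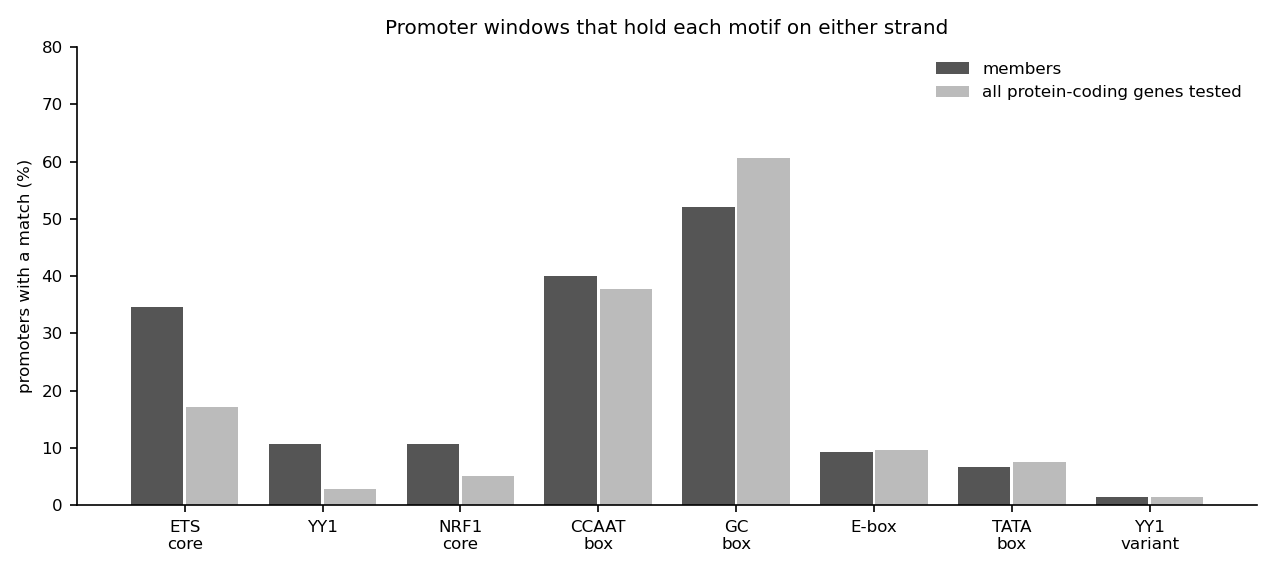
Share of promoter windows of 300 bases (vertical axis, percent) that hold each motif on either strand, for the 75 windows of members (dark) and the 12737 windows of protein-coding genes tested (light). The ETS core stands at 34.7% against 17.1% and the YY1 motif at 10.7% against 2.87%.

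The windows of the 4 largest decreases that have 1 window with such a match are printed below, followed by that of Mrpl24, the member that rose. Capitals mark CCGGAAG, AAGATGGCG, GCATGCGC or their reverse complements. In GRCm38.p6, the Mrps18b window is chr17:35916391-35916690 (minus strand) and holds the NRF1 core in duplicate and the ETS core once at its end. The Mrpl35 window is chr6:71823735-71824034 (minus strand) and holds the YY1 letters 23 bases after the start. The Mrpl17 window is chr7:105811038-105811337 (minus strand) with an ETS core and an NRF1 core, and the Mrpl18 window is chr17:12916042-12916341 (minus strand) with an ETS core. The Mrpl24 window is chr3:87919294-87919593 (plus strand) and holds none of these letters, which says nothing of other sites. The printed windows of lower genes were chosen because they hold a match. Mrpl11, Mrps6 and Mrpl45, which fell by more than Mrpl18, had none of these letters either. The contrast with Mrpl24 in the printed windows therefore comes from that choice.

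Mrps18b: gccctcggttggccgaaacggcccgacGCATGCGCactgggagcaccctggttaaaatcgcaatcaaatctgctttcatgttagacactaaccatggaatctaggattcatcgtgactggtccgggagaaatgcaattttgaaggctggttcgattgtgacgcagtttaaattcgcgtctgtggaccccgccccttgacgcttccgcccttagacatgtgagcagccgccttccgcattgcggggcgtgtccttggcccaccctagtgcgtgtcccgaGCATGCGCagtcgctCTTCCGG

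Mrpl35: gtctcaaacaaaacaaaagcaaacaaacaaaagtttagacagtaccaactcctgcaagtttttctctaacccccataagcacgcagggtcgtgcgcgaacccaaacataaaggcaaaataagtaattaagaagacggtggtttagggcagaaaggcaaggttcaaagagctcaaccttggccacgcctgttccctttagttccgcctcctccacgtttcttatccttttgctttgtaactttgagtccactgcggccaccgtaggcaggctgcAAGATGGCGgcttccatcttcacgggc

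Mrpl17: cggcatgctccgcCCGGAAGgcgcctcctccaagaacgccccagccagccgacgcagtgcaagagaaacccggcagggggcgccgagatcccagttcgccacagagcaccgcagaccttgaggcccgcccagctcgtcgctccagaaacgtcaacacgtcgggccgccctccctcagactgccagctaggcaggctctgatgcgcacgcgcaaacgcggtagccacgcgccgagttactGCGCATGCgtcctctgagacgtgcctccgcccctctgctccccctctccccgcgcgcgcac

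Mrpl18: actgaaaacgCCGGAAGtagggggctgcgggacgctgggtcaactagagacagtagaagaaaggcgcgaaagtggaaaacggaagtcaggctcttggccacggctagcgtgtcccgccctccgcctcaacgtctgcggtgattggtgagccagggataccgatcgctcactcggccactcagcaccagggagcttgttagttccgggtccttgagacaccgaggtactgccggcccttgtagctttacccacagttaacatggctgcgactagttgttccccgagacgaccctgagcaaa

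Mrpl24: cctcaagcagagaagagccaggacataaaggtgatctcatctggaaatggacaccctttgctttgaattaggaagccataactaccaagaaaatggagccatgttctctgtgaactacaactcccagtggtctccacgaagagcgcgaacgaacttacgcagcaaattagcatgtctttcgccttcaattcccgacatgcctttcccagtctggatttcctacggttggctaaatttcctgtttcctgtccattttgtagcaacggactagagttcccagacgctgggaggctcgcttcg

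Further genes belong to the ribosome or work with it. Of 5 ribosome proteins whose symbols do not begin with Mrp, 3 were lower. They were Chchd1 at 9.76 ± 0.82 CPM in FOXP3-high and 15.7 ± 1.13 CPM in FOXP3-low (SD, n = 3 and 4; edgeR adjusted p = 0.00102), Gadd45gip1 (log2 fold change -0.43) and Aurkaip1 (-0.44). Dap3 and Ptcd3 were at 0.02 and -0.05 and were not called. Of 14 translation factors of mitochondria 4 (28.6%) were lower and none higher (median -0.07), a share near the 24.6% of all genes tested. Among them, Tufm, the elongation factor that brings aminoacyl-tRNA, averaged 42.1 ± 4.29 CPM in FOXP3-high and 64.7 ± 9.15 CPM in FOXP3-low (SD, n = 3 and 4; edgeR adjusted p = 0.00179). Tsfm, which recharges it, had a log2 fold change of -0.89 (edgeR adjusted p = 0.0026) and Gfm1, the translocation factor, one of -0.38 (edgeR adjusted p = 0.00699).

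Genes for assembly of the ribosome and for modification of its rRNA gave 2 lower (8%) and 2 higher (8%) of 25, with a median of -0.06. Both shares were under the 24.6% and 21.8% of all genes tested. The median level of this list was 6.39 CPM, and among the members calls were fewer at low levels. Noa1, a GTPase of small subunit assembly, was lower (log2 fold change -0.83, SE 0.11, edgeR adjusted p = 1.84e-04), as was the assembly factor Rbfa (-0.23, edgeR adjusted p = 0.0219). The call of Rbfa was lost in 8 of 18 alternative settings, among them those without FOXP3-high replicate 2 and without FOXP3-low replicate 1, 2 or 4 (edgeR adjusted p = 0.0678, 0.0624, 0.0767 and 0.0708). Nsun4, an rRNA methyltransferase, and Mterf3 were higher, by 0.70 and 0.61 (edgeR adjusted p = 0.00332 and 0.00113), but by 0.22 and 0.13 with T cell identity scaling, where neither was called (edgeR adjusted p = 0.19 and 0.319). Of 9 genes of mitochondrial transcription and mRNA stability 1 (11.1%) was lower and 1 (11.1%) higher, shares also under those of all genes tested. Lrpprc was lower (-0.53, edgeR adjusted p = 4.89e-04) and its partner Slirp higher (0.20, edgeR adjusted p = 0.0292), although the sign of Slirp turned with T cell identity scaling (-0.29). Its call was also lost with no filter and without FOXP3-high replicate 1 or 2 or FOXP3-low replicate 3 (edgeR adjusted p = 0.119, 0.107, 0.0617 and 0.0548). The 2 rRNAs of the ribosome, added after their values were seen, were not called. mt-Rnr1 averaged 199 ± 28.2 CPM in FOXP3-high and 188 ± 14.9 CPM in FOXP3-low, and mt-Rnr2 196 ± 42.7 and 176 ± 25 CPM (SD, n = 3 and 4; edgeR adjusted p = 0.552 and 0.438). In mRNA libraries these rRNAs are captured only in part.

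**Figure D4:**
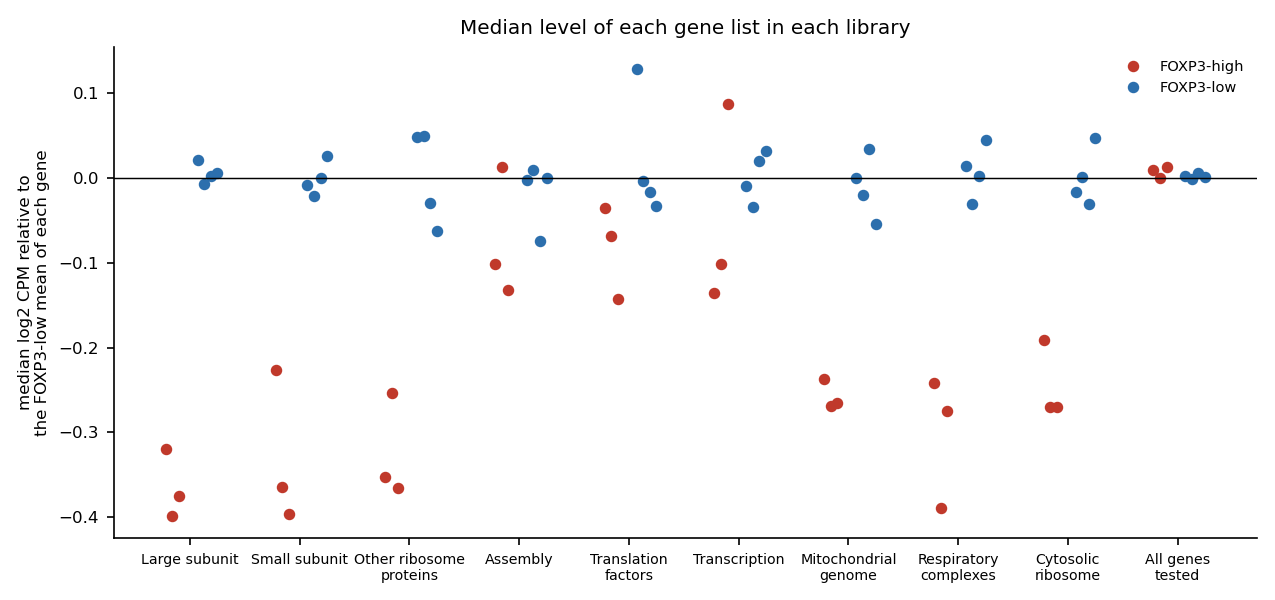
Median over the genes of each list of the log2 CPM relative to the gene's FOXP3-low mean (vertical axis), in each FOXP3-high (red, left) and FOXP3-low library (blue, right). Both ribosome subunits lie below 0 in all FOXP3-high libraries, while all genes tested stay near 0.

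The products and the cytosolic counterpart of the mitochondrial ribosome also held more genes that were lower than higher. Of 12 tested protein genes of the mitochondrial genome 8 (66.7%) were lower, with a median of -0.25. They included mt-Nd1, mt-Nd5 and mt-Nd6, subunits of complex I (log2 fold changes -0.37, -0.35 and -0.32). Of 73 nuclear genes of the respiratory complexes 43 (58.9%) were lower and none higher (median -0.33). For 79 cytosolic ribosomal proteins 47 (59.5%) were lower and 3 (3.8%) higher (median -0.24). All 3 shares of lower genes were above the members' 48.7% and the 24.6% of all genes tested, of which 21.8% were higher. Among the respiratory genes Atp5pb, Atp5f1a and Uqcrc1 had the smallest adjusted p (-0.58, -0.50 and -0.55), though not the largest decreases. Among the cytosolic ones Rps2 and Rpl35 were lower (-0.77 and -0.80), while Rps27, Rpl13a and Fau were higher (0.64, 0.23 and 0.13), the last 2 of these not with T cell identity scaling (-0.26 and -0.36), where Rps27 was not called either (0.16, edgeR adjusted p = 0.0571). The call of Fau was also lost in 7 other settings, among them those without FOXP3-high replicate 1 or 2 and without FOXP3-low replicate 3 or 4 (edgeR adjusted p = 0.194, 0.0599, 0.151 and 0.0566). The members' summed level was 32.3%, 33.2% and 32.6% of that of the respiratory genes in FOXP3-high and 32.5%, 33%, 32.1% and 32.5% in FOXP3-low, a ratio whose ranges overlapped. Set against cytosolic ribosomal proteins it was 4.43%, 4.32% and 4.51% in FOXP3-high and 4.72%, 4.61%, 4.71% and 4.67% in FOXP3-low, with no overlap.

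Factors known to act on nuclear genes of mitochondria moved in both directions, with 2 of 9 lower (22.2%) and 5 higher (55.6%). Among all genes tested the shares were 24.6% and 21.8%. Myc, which promotes growth and ribosome synthesis, averaged 27.1 ± 1.68 CPM in FOXP3-high and 38.5 ± 2.59 CPM in FOXP3-low (SD, n = 3 and 4; log2 fold change -0.50, edgeR adjusted p = 8.26e-04), and the coactivator Pprc1 was lower by a similar amount (-0.53, edgeR adjusted p = 9.47e-04). Ppargc1a, the coactivator PGC-1 alpha, was higher at 29.4 ± 4.16 CPM in FOXP3-high and 13.3 ± 4.13 CPM in FOXP3-low (SD, n = 3 and 4; log2 fold change 1.15, edgeR adjusted p = 0.00203). The 10 melanoma genes rose by a similar median of 1.07, and which cells the Ppargc1a transcripts came from was not tested. Gabpb1 and Esrra were also higher (0.50 and 0.33), but with T cell identity scaling Gabpb1 was at 0.0077 and not called (edgeR adjusted p = 0.95) and the sign of Esrra turned (-0.16). The call of Esrra was lost in 7 other settings, among them those without FOXP3-high replicate 1 or 2 and without FOXP3-low replicate 3 (edgeR adjusted p = 0.0892, 0.0683 and 0.0619). Nrf1, at 0.04, was not called, nor was Gabpa, the DNA-binding subunit of GABP, at -0.07.

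How far the members fell depended on what the libraries were scaled to. With T cell identity scaling all genes tested moved to a median of -0.47, and 75 of the 78 members were called lower and none higher, where 51.4% of all genes tested were called lower and 4.93% higher. The members' median was then -0.83, or -0.36 relative to all genes. Scaling moves all genes by nearly the same amount, so this distance had to stay close to that with TMM. The cell cycle genes and 16 of the 17 macrophage and monocyte genes given above fell together with the members, and the melanoma genes rose. Their part in the decrease of the members was not tested.

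**Figure D5:**
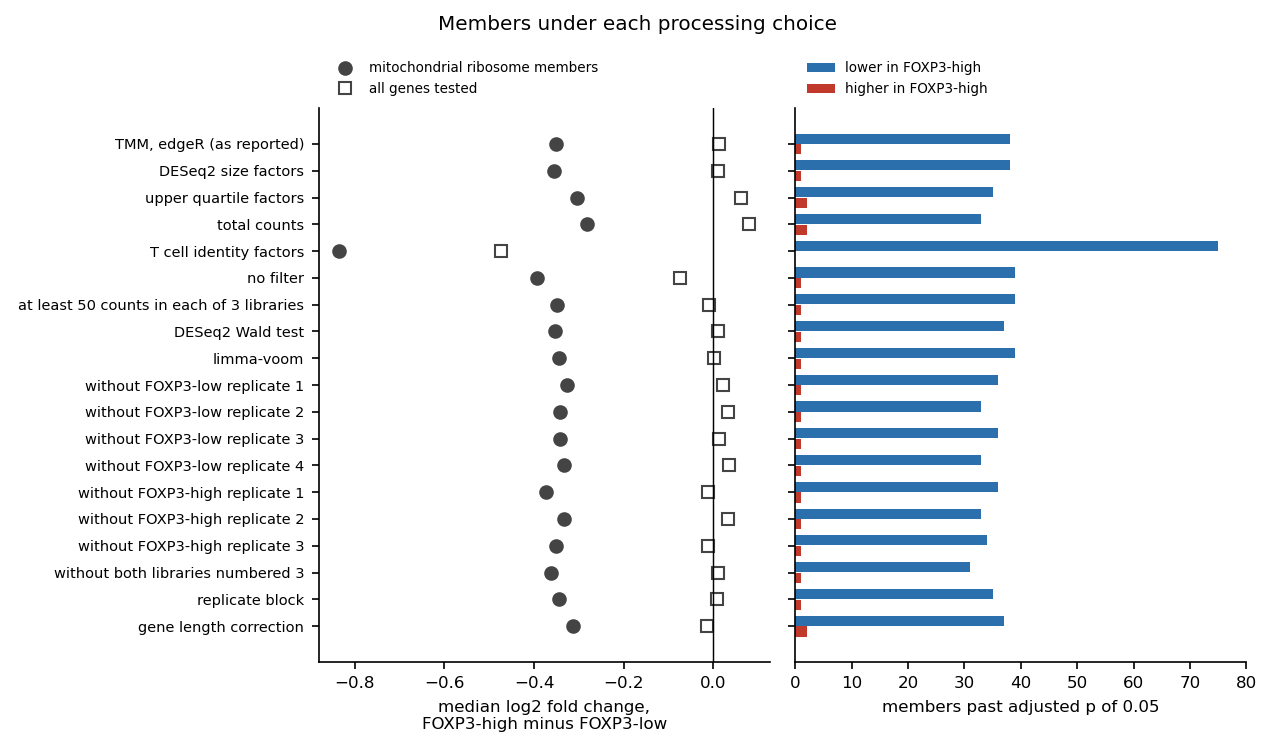
Median log2 fold change of the members (filled) and of all genes tested (open) on the left, and the number of members called lower (blue) and higher (red) on the right, under each of 19 processing choices. The members' median lies below that of all genes in every row, and the number lower is largest, at 75, with T cell identity scaling.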

How the data were processed

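RNA was measured in 7 libraries of Treg cells, 3 FOXP3-high and 4 FOXP3-low, grouped by their titles. Stranded mRNA libraries were prepared from TRIzol-extracted RNA, per the labels' protocols. The authors deposited whole-number counts per gene without normalization, with coordinates and a gene length in bases. The submitters' processing notes name featureCounts, STAR 2.5.3a and fastp 0.23.4 as tools, and GRCm39 and GRCh38 as builds. No source used here says how strand and shared or duplicate reads were handled, so counts of overlapping genes and near-identical copies are uncertain. Unmapped columns of sample values numbered 0.

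Analysis used edgeR 4.0.16 under R 4.3.3. The low-count filter was filterByExpr (minimum count 10, total 15), scaling was by TMM, and glmQLFTest compared the groups without a block, with Benjamini-Hochberg adjustment over all genes tested and a threshold of 0.05. SE was computed as |log2 fold change| over the root of the F statistic. Counts of replicates differed by more than counting noise in every pair of a group (chi-square per gene 3.98 to 12.2), so all libraries were kept. Simulated counts were used to test the edgeR code. Promoters came from RefSeq (GRCm38.p6), and no coordinates of that build were joined to the table.

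The members, gene lists and tests were chosen with earlier results of these data known. Named members are the 10 largest called changes in each direction, the 3 highest per length in each subunit and the Mrps18 paralogs; in other lists up to 3 genes with the smallest adjusted p in each direction, of which 1 is not reported here. Promoter motifs were chosen after the data were seen. Alternatives were DESeq2 size factors, upper quartile factors, total counts, T cell identity factors (17 genes), no filter, a minimum of 50 counts in 3 or more libraries, limma-voom (limma 3.58.1), a Wald test in DESeq2 1.42.0, each library left out, both libraries numbered 3 left out, a replicate block and, added after seeing the data, a loess correction for gene length (span 0.4). 1 duplicated symbol (Atp5po) was resolved by gene ID.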

Additional observations from a re-analysis of the deposited data

Results flagged for a closer look

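In FOXP3-low, the group of 4 libraries, 2 of 49 values examined had 1 library far from the others, where chance alone gives about 1 in 20. Mrps18b was at 4.15 CPM in FOXP3-low replicate 2, below 6.19 to 6.52 CPM in the other 3. Mrps25 was at 177 CPM in FOXP3-low replicate 1, above 151 to 153 CPM in the other 3. Both genes stayed lower in FOXP3-high in edgeR's test without any single library, with log2 fold changes of -1.21 to -0.78 for Mrps18b (adjusted p at most 0.0332) and -0.40 to -0.23 for Mrps25 (adjusted p at most 0.0328).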

How the results depend on the processing

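Leaving out each library in turn gave 33 to 36 members called lower, 1 called higher throughout, and a median log2 fold change between -0.37 and -0.33. Without both libraries numbered 3 the count fell to 31 lower, with 1 higher and a median of -0.36. The number lower was 38 with TMM and moved by over 1.5 times in 1 of 18 alternatives, to 75 with T cell identity factors, where 0 were higher and the median was -0.83. Upper quartile factors and total counts each gave 2 members higher, with medians of -0.30 and -0.28, and the gene length correction, added after the data were seen, also gave 2 higher with a median of -0.31. Without a filter the median was -0.39. T cell identity factors aside, 14% to 29.8% of all genes tested were lower under these choices. Mrpl24 turned from 0.35 to -0.13 with T cell identity factors. Mrps18a, not called, turned to 0.0075 with total counts and 0.020 without both libraries numbered 3, and ran from -0.18 without FOXP3-high replicate 1 to 0.017 without FOXP3-high replicate 3. Slirp, Rpl13a, Fau and Esrra turned to -0.29, -0.26, -0.36 and -0.16 with T cell identity factors. The cause of these changes was not tested, other than that the scaling moved all genes. Of the 38 members called lower, 28 passed the threshold in every one of the 18 alternatives, and the call of Mrps28 held in 5. Mrps21 lost its call without FOXP3-high replicate 2 (edgeR adjusted p = 0.0506). A replicate block in the fit gave 35 members lower and 1 higher. With each group's mean subtracted, same-numbered libraries correlated at -0.10, 0.07 and 0.49, and libraries with different numbers at -0.50 to 0.31. The numbers were not taken as pairs. In the third of members with the lowest level (1.41 to 10.4 CPM) the median SE was 0.184, which limits what could be called.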
